A study of Mus musculus with 6 samples.

Results

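Zfp genes are mouse genes named zinc finger protein with a number, most of which encode DNA-binding proteins built of C2H2 zinc fingers. With earlier results of these data known, members were chosen by gene name from the authors' deposited table of differentially methylated regions. Every region listed with a gene whose symbol begins with Zfp and a digit was taken. This gave 62 distinct regions at 46 genes, of 9707 regions in the table, 6501 of which are listed with any named gene. The other Zfp genes carry no listed region: 46 of 397 protein-coding Zfp genes in the RefSeq table had one (11.6%), against 18% of 21900 protein-coding genes.

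Single mouse embryos at embryonic day 4.5, the blastocyst stage, were sequenced by whole-genome bisulfite sequencing, in which bisulfite turns unmethylated cytosine into uracil before sequencing. As fertilised eggs of C57BL/6 background they had been microinjected with small RNAs of sperm at 2 ng/µl, cultured, and collected about 108 h later. The depressed group (3 embryos, replicates 1, 3 and 4) received RNA from males with stress-induced depression, and the normal group (3 embryos, replicates 1, 2 and 4) received RNA from normal males; they are called depressed and normal embryos for short. The labels do not say how many males gave the RNA, and uninjected eggs were not analysed here. The table gives 1 mean level per group and region, and a statistic per region that the header calls an area statistic. With 0 columns for single embryos and no coverage, no value below has a spread, the depth behind it is unknown, and no difference could be set against the variation among embryos. The regions are in the table because the authors' procedure called them different, so the differences are a description of that list.

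Krüppel-associated box (KRAB) zinc finger proteins are the largest family of transcriptional repressors in mammals. The KRAB domain recruits the corepressor Trim28 and, through it, the histone methyltransferase Setdb1, and in early embryos this machinery keeps retroelements and imprinted control regions silent and methylated. KRAB zinc finger genes evolve fast and lie in clusters. Zfp genes without a KRAB domain are more often conserved single genes, among them transcription factors of neural development and, in the CCCH kind, RNA-binding proteins. The InterPro text in the deposited table named a zinc finger for 46 of the 46 member genes, of the C2H2 kind for 45. It named a KRAB domain for 17 genes, with 18 regions, and none for 29 genes, with 44 regions.

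Direction followed the cytosine context. In the CG context 6 of 6 Zfp regions were lower in the depressed group and 0 higher, against 98.6% lower and 1.36% higher over the 664 CG regions listed with a named gene. In the CHG context, where H is any base but G, 11 of 14 were lower and 3 higher, against 91.1% lower and 8.94% higher over 1744 regions of named genes. In the CHH context 33 of 42 were higher (78.6%) and 9 were lower. Of 4093 such regions of named genes, 70.0% were higher and 30.0% lower. Over all contexts 36 of 62 Zfp regions were higher (58.1%) and 26 were lower (41.9%). Of the 6501 regions, 46.6% were higher and 53.4% lower. Which regions Zfp genes are set beside changes this picture: over all 9707 listed regions, with or without a named gene, 58.8% were higher and 41.2% lower, and over their 6943 CHH regions 79.6% were higher, both within 2 points of the Zfp shares. Among all 397 Zfp genes, 33 had a higher region (8.31%) and 19 a lower one (4.79%), against 9.78% and 10.2% of protein-coding genes. The shares of Zfp genes with a region were 4 of 397 for CG (1.01%), 12 for CHG (3.02%) and 35 for CHH (8.82%), against 2.58%, 7.09% and 13.5% of protein-coding genes. Gene length went with having a region: the 46 Zfp genes with a region had a median span of 38.9 kb and the 351 without one 16.4 kb, and over protein-coding genes it was 57.1 kb with and 13.8 kb without. No count here is adjusted for length, whose part in it was not tested.

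**Figure D1:**
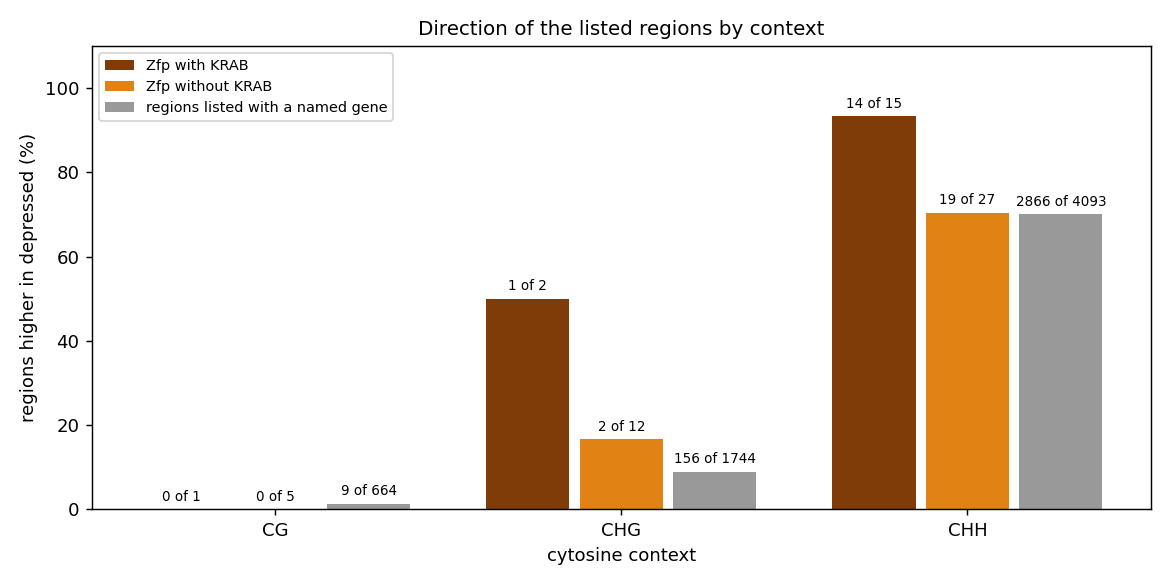
Share of listed regions that were higher in the depressed group (y axis, %), by cytosine context (x axis), for Zfp genes with a KRAB domain, Zfp genes without one and all regions listed with a named gene; counts stand above the bars. CG bars are at or near 0, and CHH bars stand at 14 of 15, 19 of 27 and 2866 of 4093.

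The size of the difference varied with both context and direction. For lower CG regions of Zfp genes the median level was 3.69% in depressed and 68.9% in normal embryos, against 5.11% and 70.4% over 655 lower CG regions of named genes. Lower CHG regions had 0.426% (depressed) and 29.0% (normal), against 0.174% and 30.9% over 1588 regions. Lower CHH regions had 0.392% (depressed) and 16.7% (normal), against 0.625% and 25.7% over 1227 regions. Higher CHH regions had median levels of 5.26% (depressed) and 0.746% (normal), against 4.79% and 0.779% over 2866 regions. The median difference, depressed minus normal, was 3.94 percentage points for higher CHH regions, against -64.5, -28.9 and -16.6 points for lower CG, CHG and CHH regions. For the 3 higher CHG regions it was 17.4 points, against 20.4 points over 156 regions of named genes.

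**Figure D2:**
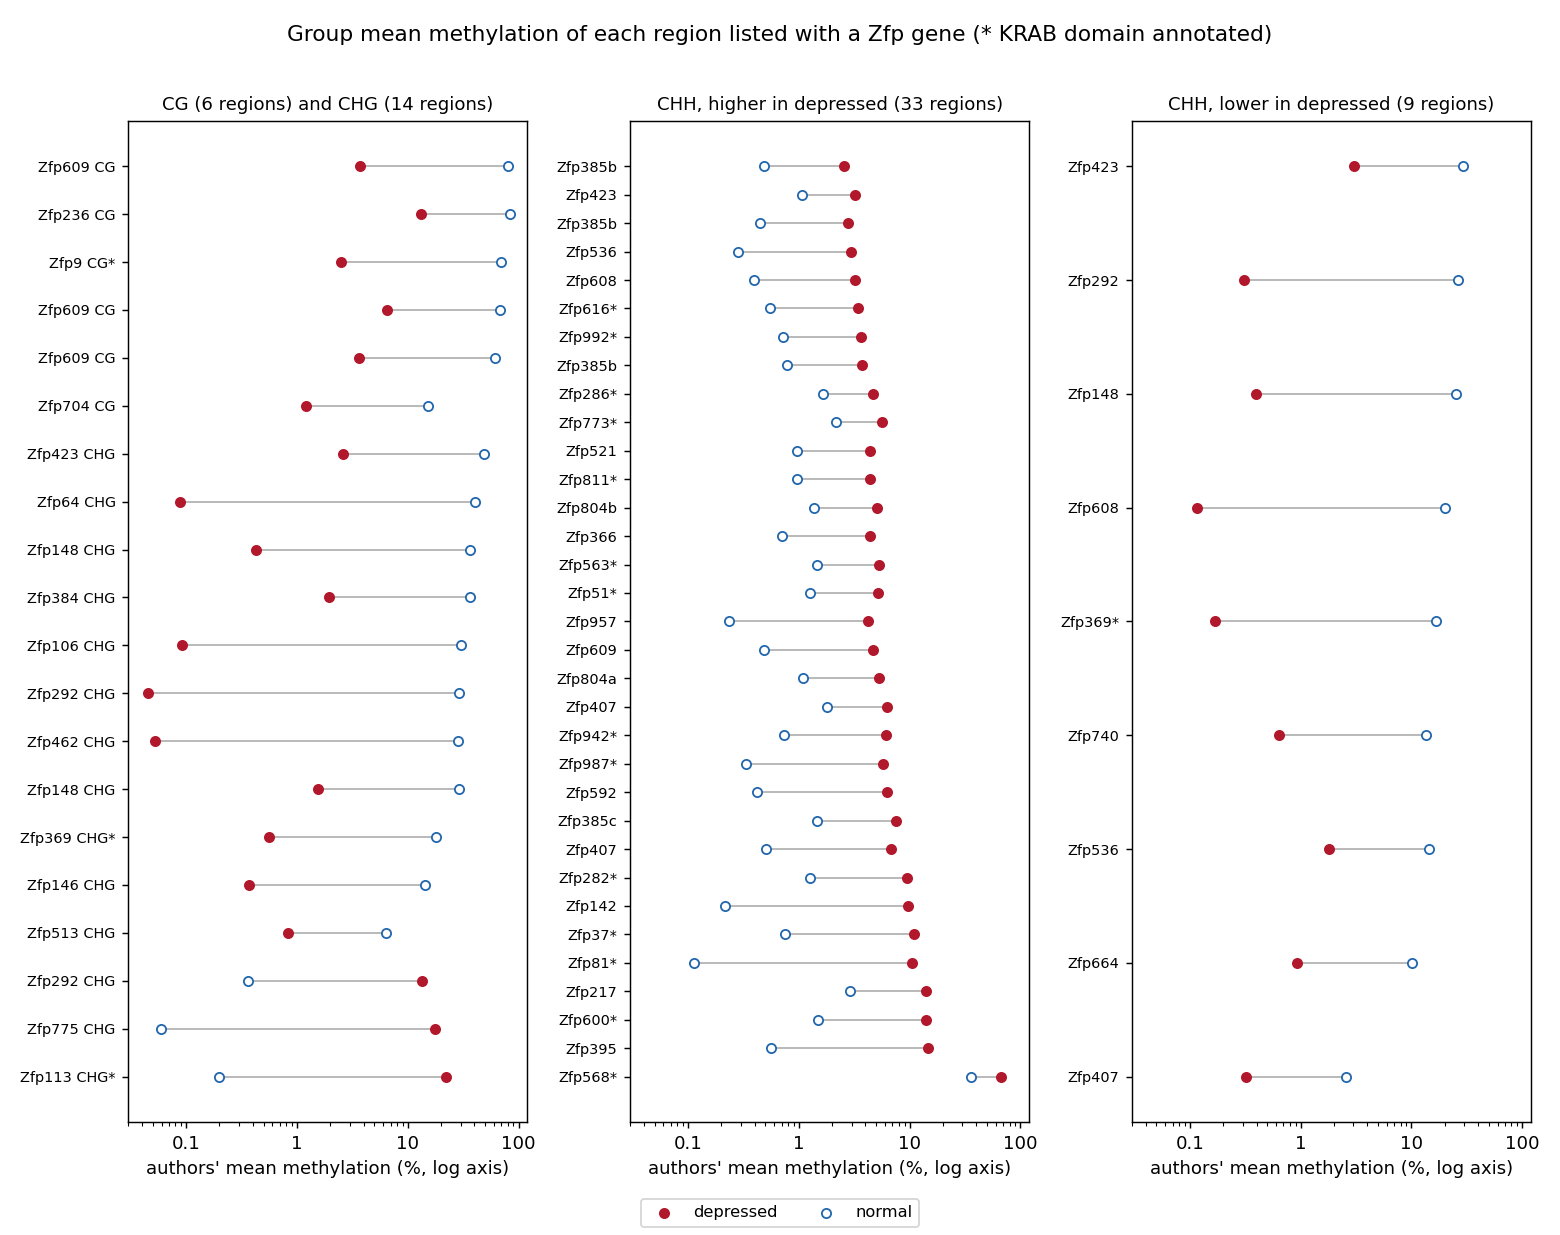
Authors' mean methylation of each of the 62 regions (x axis, %, log axis) in the depressed group (filled red points) and the normal group (open blue points), 1 row per region named by its gene; asterisks mark genes with a KRAB domain. The 33 higher CHH regions mostly lie between 2.58 and 14.6% in the depressed group, with Zfp568 apart at 66.8%.

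Of the 17 KRAB genes, 15 had only higher regions and 2, Zfp369 and Zfp9, only lower ones. In the CHH context 14 of their 15 regions were higher, against 19 of 27 in Zfp genes without the domain. Most CHH regions were higher in any case: 70.0% of those with a named gene and 79.6% of all listed ones. Whether KRAB genes differ from any of these sets was not tested. CHG and CG held 2 and 1 of the regions of KRAB genes. The higher CHH regions of KRAB genes had medians of 5.69% in depressed and 1.11% in normal embryos, and those without the domain 4.64% (depressed) and 0.556% (normal). KRAB genes were shorter, with a median span of 26.4 kb against 66.2 kb without the domain, and had more Zfp genes around them, with a median of 5 others within 500 kb against 0; the median of all 397 Zfp genes was 2.

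Several of these regions lay in the same cluster. On chromosome 17 of mm10, Zfp811, Zfp563 and Zfp81 carried 3 higher CHH regions within 563 kb, at 4.42, 5.26 and 10.5% in the depressed group, against 0.964, 1.46 and 0.113% in the normal group. Elsewhere on this chromosome, within 502 kb, Zfp51 and Zfp942 had 5.17 and 6.10% in the depressed group, against 1.27 and 0.736% in the normal group. On distal chromosome 4, Zfp987, Zfp600 and Zfp992 carried 3 within 341 kb, at 5.81, 14.03 and 3.64% in the depressed group and 0.333, 1.50 and 0.724% in the normal group. These 8 regions lie in introns, promoters or, at Zfp811, the 3′ UTR. Each of the 8 genes had 1 region, and up to 16 other Zfp genes, at Zfp942, lie within 500 kb of them. Genes of such clusters are close copies of each other, and the labels do not say how reads matching several copies were treated.

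Further KRAB genes also had a higher CHH region. Zfp37 stood at 10.9% (depressed) and 0.746% (normal) in a region that lies 16518 bp outside its RefSeq span, the only 1 of the 62 regions over 10 kb away. Zfp282 had 9.45% (depressed) against 1.26% (normal) and Zfp286 4.72% (depressed) against 1.64% (normal), both in introns. Zfp616 had 3.45% with RNA of depressed males and 0.554% with that of normal males, in an intron with a LINE-1 repeat, and Zfp773 had 5.58% (depressed) against 2.17% (normal) at its promoter, also in a LINE-1 repeat. Zfp113 carried a higher CHG region instead (chromosome 5, 138150736 to 138150852), at 22.2% in depressed against 0.200% in normal embryos, in an intron and a repeat.

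Zfp568, which in mouse silences a placental promoter of Igf2, was the 1 gene with a region among 10 listed for silencing of imprints or retroelements; Zfp57, Zfp445 and Zfp809 had 0. A count of 1 of 10 is close to the 11.6% of all Zfp genes with a region. Its CHH region (chromosome 7, 29981891 to 29981989; promoter, CpG island shore and an RLTR53B_Mm retroviral repeat, 47 cytosines) was at 66.8% in depressed and 35.6% in normal embryos. Both levels are far above those of the other 32 higher CHH regions. Of these, the highest depressed level was 14.6%, at Zfp395, and the highest normal level 2.90%, at Zfp217. Among the 2866 higher CHH regions of named genes, 31 reached the depressed level of Zfp568 and 30 its normal level. The region lies 1966 bp outside the RefSeq span of the gene, which has 14 other Zfp genes within 500 kb.

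Zfp369, a KRAB and SCAN gene, had overlapping CHG and CHH regions in an intron (chromosome 13, 65303423 to 65303666 for CHH), inside an L1MdMus_I LINE-1 element. CHG methylation was 0.563% with RNA of depressed males and 17.9% with that of normal males, and CHH methylation 0.169% (depressed) and 16.7% (normal). Zfp9 had a lower CG region in an exon (chromosome 6, 118464595 to 118464715, 7 cytosines), at 2.50% in depressed against 69.7% in normal embryos. That region lies in an MMSAT4 satellite, as does a lower CHH region in an exon of Zfp664 (0.926% in depressed, 10.1% in normal). The table holds 2 regions with an MMSAT4 entry, and both are these.

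Zfp292, a large zinc finger gene whose human counterpart is linked to a neurodevelopmental disorder, was the 1 gene with a region over its annotated start among the 31 members that the RefSeq promoter table holds. There, CHG methylation was higher (chromosome 4, 34882841 to 34882981; promoter, 5′ UTR, exon and CpG island, 17 cytosines), at 13.4% in depressed and 0.360% in normal embryos. In an intron 44.4 kb away the opposite was listed, at 0.0454% (depressed) and 29.0% (normal) for CHG, and at 0.306% (depressed) and 26.1% (normal) for an overlapping CHH region. The start site region overlaps 83 bases of the RefSeq promoter window (GRCm38.p6), of which 33 lie before the start used for that window. The RefSeq span of the gene reaches further upstream, to 34882983, so these 33 bases lie inside the span. The 250 bases before the start (chr4:34882949-34883198, minus strand) are shown because they are the sequence of a Zfp promoter that a listed region reaches; capitals mark the 33 bases inside the region, and the start follows the last base.
Zfp292: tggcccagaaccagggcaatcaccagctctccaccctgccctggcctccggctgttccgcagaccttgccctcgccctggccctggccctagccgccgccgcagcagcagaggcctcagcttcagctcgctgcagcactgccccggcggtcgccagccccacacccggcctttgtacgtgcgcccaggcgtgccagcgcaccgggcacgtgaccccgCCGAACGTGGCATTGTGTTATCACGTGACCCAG
These 250 bases hold 21 CG sites and no CG region was listed for Zfp292. Across the 83 shared bases there were 4 CHG cytosines on the strand shown and 5 on the other.

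Zfp148, a widely expressed Krüppel-type transcription factor gene, had the longest of the Zfp regions. Its 3′ UTR carried a CHH region of 1649 bp with 90 cytosines (chromosome 16, 33499698 to 33501346), at 0.392% with RNA of depressed males and 25.0% with that of normal males. Inside it lay 2 CHG regions, at 1.57% (depressed) against 28.7% (normal) and 0.426% (depressed) against 36.5% (normal). Its 3 regions went the same way, about 118 kb from the nearest annotated start.

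Zfp423, a transcription factor gene of cerebellar development and fat cell fate, showed the same pair of contexts at a CpG island inside the gene. A CHH region (chromosome 8, 87782873 to 87783319; exon) was at 3.03% in depressed against 29.4% in normal embryos. An overlapping CHG region listed as 5′ UTR was at 2.62% in depressed and 48.6% in normal embryos. About 21.1 kb separates it from the nearest annotated start, and an intron closer to the gene's 3′ end carried a higher CHH region, at 3.22% (depressed) and 1.06% (normal).

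Overlaps of this kind joined 5 of the 11 lower CHG regions to 4 of the 9 lower CHH regions, at Zfp148, Zfp292, Zfp369 and Zfp423. Over named genes 48.9% of lower CHG regions overlapped a lower CHH region and 58.4% of lower CHH regions overlapped a lower CHG region. All overlapping Zfp pairs had the same direction. No Zfp region of the CG context overlapped one of another context, and neither did a higher region.

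Of 18 genes listed for roles in brain and nerve cells, 16 carry a Zfp symbol. Of these 16, 10 had a region, with 10 higher and 9 lower regions between them, beside 11.6% of all Zfp genes. The list was chosen with earlier results of these data known, so these shares cannot show an excess. The 10 are long genes, with a median span of 248 kb against 25.4 kb for the listed genes without a region. The listed Zfp238, under its symbol Zbtb18, had only lower regions, in CHG and CHH. Zfp385b, a gene of U1-type zinc fingers, had 3 higher CHH regions in introns. They stood at 3.72, 2.79 and 2.58% in the depressed group and 0.780, 0.443 and 0.483% in the normal group, and the first had the largest CHH statistic of all Zfp regions, with 297 cytosines in 522 bp. Its relative Zfp385c had 7.52% (depressed) against 1.45% (normal). Zfp804a, whose human counterpart is a schizophrenia risk gene, had 5.28% with RNA of depressed males and 1.09% with that of normal males in an RMER17D retroviral repeat. Its paralogue Zfp804b had 5.04% (depressed) against 1.37% (normal) in LINE-1 repeats.

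Zfp536, a repressor of neuronal differentiation, had a lower CHH region over an exon and intron, at 1.79% in depressed against 14.5% in normal embryos. Another intron, with an IMPB_01 repeat, was at 2.97% in depressed and 0.285% in normal embryos. Zfp521, which drives neural fate in embryonic stem cells, had 4.41% (depressed) against 0.961% (normal), also at an IMPB_01 repeat. Zfp704 had a lower CG region in its 5′ UTR and a CpG island (chromosome 3, 9609824 to 9609894, 25 cytosines in 71 bp), at 1.20% (depressed) and 15.2% (normal). That region had the largest CG statistic of the Zfp genes and the smallest CG difference.

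Zfp609 and Zfp608 are paralogues, and Zfp609 works with the Integrator complex and the cohesin loader Nipbl in neural progenitors. Zfp609 carried the most regions, 4, of which 3 were lower CG regions on chromosome 9. The one at a promoter, exon and intron (65701074 to 65701214) was at 6.48% with RNA of depressed males and 68.1% with that of normal males. The 2 in intronic SINE repeats had 3.65% (depressed) against 61.8% (normal) and 3.73% (depressed) against 79.7% (normal). A CHH region nearby (65697143 to 65697366) was higher instead, at 4.64% in depressed against 0.487% in normal embryos. Zfp608 had 1 CHH region of each direction in introns on chromosome 18, at 3.20% (depressed) against 0.394% (normal) and at 0.117% (depressed) against 19.9% (normal).

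Zfp407, also on chromosome 18, had 2 higher CHH regions and 1 lower. The higher ones were at 6.24 and 6.76% in the depressed group and 1.81 and 0.509% in the normal group, and the lower one at 0.324% in depressed and 2.58% in normal embryos. The region at 6.24%, with 228 cytosines, had the second largest CHH statistic. The one at 6.76% lies 4519 bp outside the RefSeq span of the gene, though listed as intronic. Zfp236 on the same chromosome had the highest CG level in the normal group, 83.9%, against 13.05% in the depressed group, in an intron. In all, 6 genes (Zfp292, Zfp407, Zfp423, Zfp536, Zfp608 and Zfp609) had regions of both directions, all without an annotated KRAB domain. Only genes with more than 1 region can have both, which were 1 KRAB gene, Zfp369, and 8 genes without the domain.

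**Figure D3:**
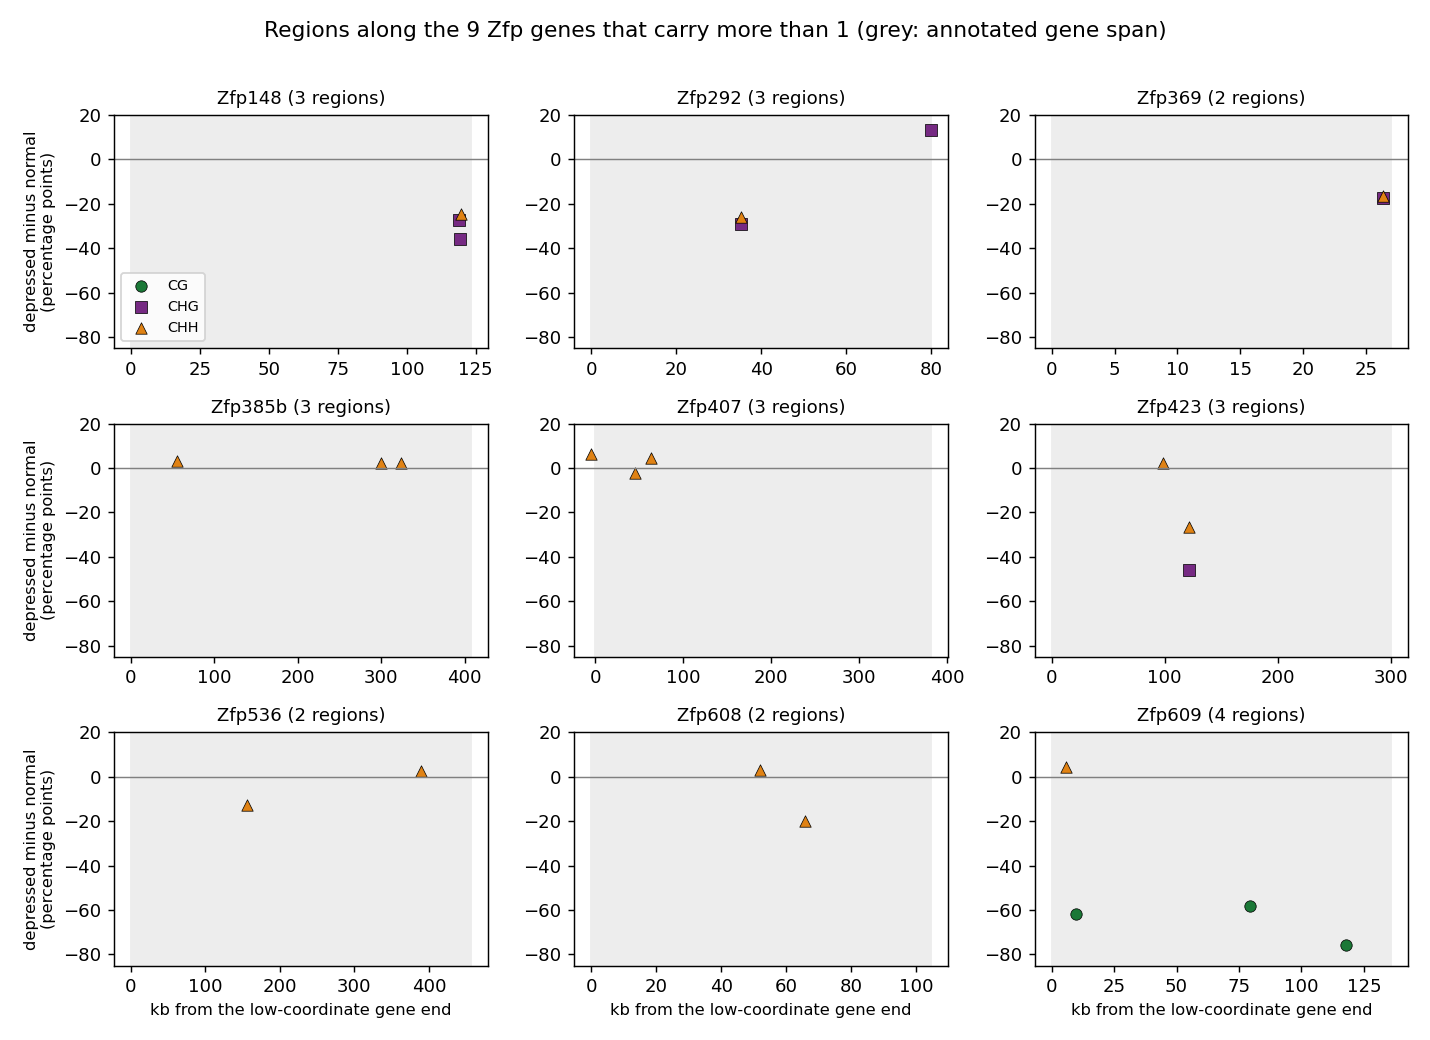
Difference between the group means (y axis, depressed minus normal, percentage points) against position in the gene (x axis, kb from the low-coordinate end of its RefSeq span, grey) for the 9 Zfp genes with more than 1 region; circles are CG, squares CHG and triangles CHH. CG points of Zfp609 lie at or below -58.2 points, and higher regions lie at most 13.0 points above 0.

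Of 9 genes listed for the early embryo 2 had a region (22.2%, against 11.6% of Zfp genes and 18% of protein-coding genes), too few to read against those shares. Zfp217, a partner of corepressor complexes that is amplified in human breast cancer, had a higher CHH region in an intron, at 14.2% (depressed) and 2.90% (normal), in an RMER17D repeat. Zfp462, which recruits histone methyltransferases to lineage genes in embryonic stem cells, had lower CHG methylation in an exon, at 0.0528% (depressed) against 28.6% (normal). Zfp42, the pluripotency marker also called Rex1, and Zfp281 had 0. The RNA-binding CCCH genes Zfp36, Zfp36l1, Zfp36l2 and Zfp36l3 also had 0 regions.

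The remaining lower CHG regions were spread over gene parts. Zfp513 had the strongest CHG statistic (chromosome 5, 31200432 to 31200604; promoter, exon, intron and CpG island, 24 cytosines) at 0.823% in depressed and 6.42% in normal embryos, the smallest difference of the lower CHG regions. Zfp146 had 0.366% (depressed) against 14.4% (normal) in its 5′ UTR. Zfp106, needed for the upkeep of motor neurons and muscle, had 0.0925% (depressed) against 30.5% (normal) in its 3′ UTR. Zfp384, a nuclear matrix transcription factor gene, had 1.94% (depressed) against 36.7% (normal), and Zfp64 had 0.0887% (depressed) against 40.5% (normal), both in introns with SINE repeats. Zfp740 had a lower CHH region in its 3′ UTR instead, at 0.643% in depressed against 13.5% in normal embryos. Zfp775 had a higher CHG region of 4 cytosines in an exon, at 17.5% in depressed and 0.0589% in normal embryos.

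Higher CHH regions outside introns were few among genes without a KRAB domain. Zfp395 had one in its 3′ UTR (chromosome 14, 65396743 to 65397012) at 14.6% (depressed) and 0.556% (normal). Zfp142 had one at 9.77% (depressed) against 0.216% (normal), in a promoter it shares with Bcs1l, where the region also lies in an exon and the 5′ UTR of Bcs1l. Intronic ones were listed for Zfp366, a gene of dendritic cells (4.43% with RNA of depressed males and 0.703% with that of normal males), Zfp592 (6.27% in depressed, 0.415% in normal) and Zfp957 (4.17% in depressed, 0.236% in normal), whose InterPro text names a PHD-type finger and an AT hook.

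Exons or UTRs were listed for 7 of 11 lower CHG regions (63.6%) and 5 of 9 lower CHH regions (55.6%), against 84.6% and 71.9% over regions of named genes. The 3′ UTR was listed for 3 lower CHG regions (27.3%, against 51.5%) and 2 lower CHH regions (22.2%, against 49.6%). Introns were listed for 5 lower CHG regions (45.5%, against 35.3%) and 6 lower CHH regions (66.7%, against 48.9%). With introns at 6 and exons or UTRs at 5 of 9 lower CHH regions, some listed with both, their order was not read. Of the 33 higher CHH regions, 26 were intronic (78.8%, against 95.2%), 6 were at a promoter (18.2%, against 9.98%) and 4 were in an exon or UTR (12.1%, against 3.77%). The promoter counted at Zfp616 is that of an unnamed gene, and the exon and 5′ UTR counted at Zfp142 are those of Bcs1l. LINE-1 repeats were listed for 7 of these 33 (21.2%, against 6.45%), ERVK retroviral repeats for 5 (15.2%, against 11.2%) and SINEs for 2 (6.06%, against 13.6%). Over all 5528 listed higher CHH regions these shares were 56.7% intronic, 9.06% promoter, 2.23% exon or UTR, 12.9% LINE-1, 18.9% ERVK and 17.3% SINE. The Zfp shares of introns and ERVK repeats thus lie between those of the 2 wider sets. Those of promoters, exons or UTRs and LINE-1 repeats are above both, and that of SINEs is below both. No test was made of these shares, which rest on few regions. Among the higher CHH regions listed as intronic, that of Zfp37 and 1 of Zfp407 lie outside the RefSeq span of the gene.

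**Figure D4:**
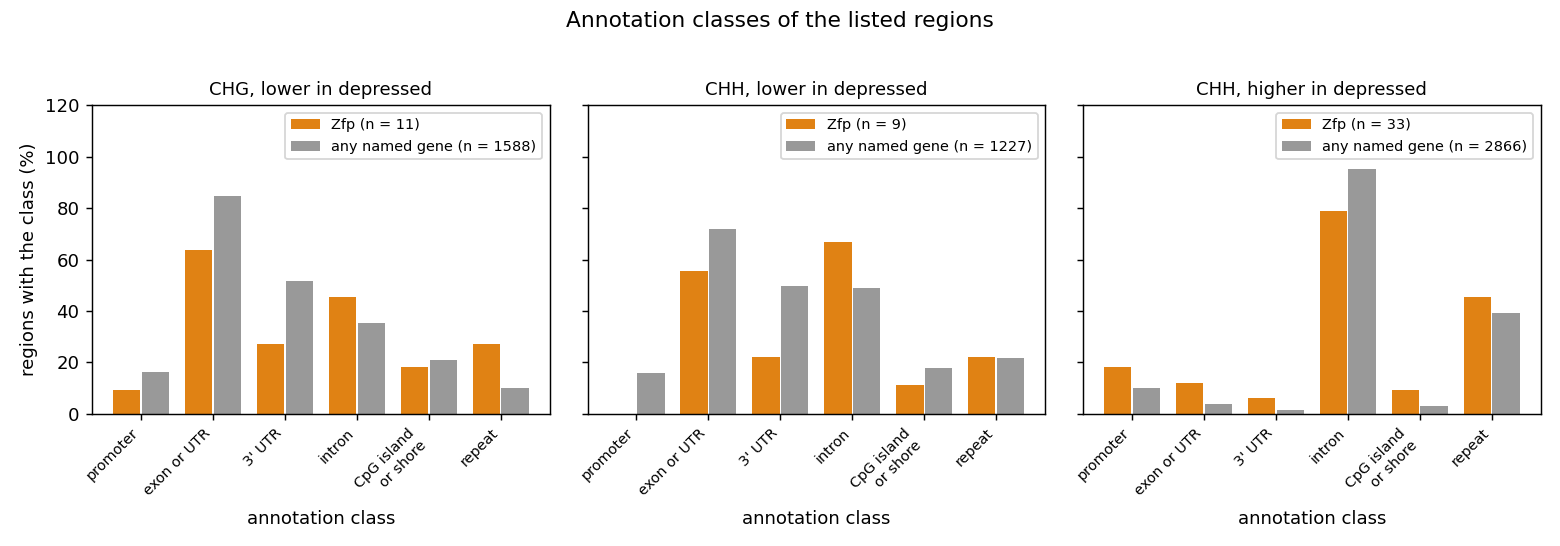
Share of regions listed with each annotation class (y axis, %; classes on the x axis, of which a region may have several) for Zfp genes (orange) and all regions listed with a named gene (grey), in 3 panels by context and direction. Introns lead among higher CHH regions in both sets (78.8% and 95.2%), and exons or UTRs among lower CHG regions (63.6% and 84.6%).

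Among 42 genes that act with zinc finger repressors, in heterochromatin, in DNA methylation or in mRNA decay, 10 had a region (23.8%, against 18% of protein-coding genes). Higher regions were listed for 4 of them (9.52%, against 9.78%) and lower ones for 6 (14.3%, against 10.2%). Trim28 and Setdb1 had 0. Cbx5, which encodes the heterochromatin protein HP1α, had CHH methylation of 0.896% (depressed) and 55.6% (normal) in its 3′ UTR, with an overlapping CHG region at 0.0549% (depressed) against 49.5% (normal). Chd3, a chromatin remodeller gene, had CHH methylation of 0.815% (depressed) against 28.0% (normal) and CHG methylation of 0.0855% (depressed) against 36.7% (normal), also in the 3′ UTR. Smchd1, a silencer of the inactive X chromosome, had 2 lower CHH regions, at 0.483% (depressed) against 13.8% (normal) and 1.41% (depressed) against 69.04% (normal). The demethylase gene Tet3 had CHH methylation of 1.34% (depressed) against 22.1% (normal). That region spans 5131 bp with only 53 cytosines, and is listed with an exon, the 3′ UTR and a repeat. The methyltransferase gene Dnmt3a had a lower CHG region (0.0921% in depressed against 9.10% in normal embryos), and its cofactor gene Dnmt3l a higher one (8.51% in depressed, 0.119% in normal). Higher CHH regions lay in Morc3, a silencer of retroelements (10.9% in depressed, 0.374% in normal), the remodeller gene Hells (6.07% in depressed, 0.832% in normal) and Tet2 (4.88% in depressed, 0.739% in normal). Mbd3 had the only CG region of the list, at 6.27% in depressed and 69.7% in normal embryos.

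Related zinc finger genes named Zkscan, Zscan or Zbtb had 18 regions at 9 of 68 genes (13.2%, against 18% of protein-coding genes). Of these regions 6 of 6 were lower in CG (98.6% over named genes), 4 of 4 lower in CHG (91.1%), and 3 of 8 higher in CHH (70.0%). Whether the CHH split differs from the 33 higher and 9 lower of Zfp genes was not tested.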

How the data were processed

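The source was the authors' deposited table of regions that differ between the depressed and normal groups. Per the submitters' processing notes, the tools were Trim Galore 0.3.3, Bismark and SAMtools, and the build mm10. The region caller, its thresholds, any coverage filter and any pooling of embryos were not given in the sources used here. Per the file headers, the deposited values are mean methylation as a fraction per group, their difference (depressed minus normal) and a region statistic, a score; fractions were multiplied to percent here. The 18732 annotation entries were collapsed to 9707 regions by chromosome, start, end and context, and 82 entries of Zfp genes gave the 62 regions.

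Entries may list a region with several genes. Of 12 regions wholly inside a RefSeq promoter window, 12 began on a C or G of the reference, a check of build and coordinates. In 9 the number of cytosines equalled the context's count on 1 strand. A CHH region of 98 cytosines did so, but CHH regions of 60 and 52 cytosines exceeded either strand (59 and 15, 36 and 27). A CHG region of 4 fell below both strands (7 and 6). How cytosines were counted in CHH regions is therefore not settled. Gene spans came from the RefSeq table for GRCm38.p6 (mm10), to which 46 of 46 Zfp names and 3981 of 4040 gene names matched. Promoter windows were at hand for 31 of the 46 genes, too few for a comparison of base composition. Domains are the InterPro text of the deposited table; a planned count of fingers in the protein sequences was not made, and the genome sequence of the regions was not analysed here.

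Zfp regions were to be set beside all listed regions; regions listed with a named gene were taken as the main comparison instead after the data were seen, because membership requires a gene name, and shares over all listed regions are given where the choice matters. Counts and medians are descriptions with no test, since no value per embryo was at hand. Members, role lists and the naming rule were all chosen with earlier results of these data known. The rule (genes with a CG region, the 8 strongest statistics per context and direction, genes with several regions, contexts or directions, promoter or CpG island regions, role lists, longest region) named 35 genes; the other 11 were named after their values were seen, to account for every member. Collapsing was tested on simulated data. Python 3.11.15, pandas 2.3.3 and NumPy 2.4.6 were used.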

Additional observations from a re-analysis of the deposited data

How the results depend on the processing

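Of 97 values recomputed under other choices, 73 stayed within 1.5 times the count, within the exact binomial interval of a share or within the interquartile range of the differences. With regions of at least 10 cytosines, lower CG regions numbered 1 (median difference -14.0 points) and lower CHG regions 6. Without chromosomes 9 and 10, 3 lower CG regions were left. With differences of at least 10 points, higher CHH regions numbered 6 (median 11.9), Zfp genes 24, partner genes 6, exons or UTRs made up 50.0% and introns 53.1%. With statistics at or above the median of the context, there were 4 lower CHG (median -21.5), 1 higher CHG (median 13.0), 14 higher CHH and 3 lower CHH regions, 25 Zfp genes and 4 partner genes. A wider set of zinc finger genes (synonyms, Zkscan, Zscan, Zbtb and other Zfp names) gave 13 lower CG, 21 lower CHG, 51 higher CHH and 18 lower CHH regions, and Zkscan, Zscan and Zbtb genes alone gave 9 genes. These changes come with fewer or more regions counted. Over the same 6 lower CG regions the mean difference was -58.0 points, against a median of -64.5. Counts and differences within 1 direction cannot change sign, so signs say nothing about stability here.

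No paired analysis was possible because the deposited table holds no values per embryo, so leaving out an embryo was not possible either. Depth is unknown, and CG and CHG regions rest on as few as 4 cytosines.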
